A study of Mus musculus with 5 samples.

Results

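The genes described here are 10 members of the Notch pathway, chosen by symbol: the receptors Notch1, Notch2 and Notch3, the ligands Jag1, Jag2 and Dll1, the DNA-binding factor Rbpj, the target genes Hes1 and Hey1, and the inhibitor Numb. They were 10 of the 24347 gene symbols in the deposited tables and had 18 of the 34535 RefSeq transcripts. Members with a single transcript numbered 8, while Rbpj had 4 transcripts and Numb had 6. They were measured in 2 libraries of Krt6a+ cells, numbered 2 and 3, and 3 libraries of WAP+ cells, numbered 1 to 3. By their labels Krt6a+ cells are precancerous stem cells positive for keratin 6a, and WAP+ cells are positive for whey acidic protein, a milk protein. All libraries came from precancerous mammary tissue of transgenic mice (MMTV-Wnt-1) on a background of FVB, SJL and C57BL/6, in which the MMTV promoter drives Wnt-1 in the mammary epithelium. Each library was made from a small pool of cells sorted with an antibody to TVA. The labels give no age, do not say how TVA marked each population, and do not say that the libraries came from separate mice. The p-values therefore measured only the spread between these libraries, which may be technical.

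Notch receptors are membrane proteins that are activated by Jagged and Delta-like ligands on neighbouring cells. Ligand binding leads to cleavage by an ADAM protease and then by gamma-secretase, and the released intracellular domain joins Rbpj on DNA to switch on genes such as Hes1 and Hey1, which encode transcriptional repressors. Numb binds the receptor and promotes its removal from the membrane. In the mammary gland Notch activity is known for its part in luminal commitment, and Notch4 was found as a gene into which MMTV inserts in mammary tumours.

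The printed windows hold the 250 bases before annotated starts of the members whose start sites matter below, from RefSeq on GRCm38.p6, the build named mm10 in the submitters' notes. Of the 10 members, 8 had an entry, in 12 windows, and Hes1 and Hey1 had none. The core letters bound by Rbpj, TGGGAA, were searched on both strands, where the reverse reads TTCCCA. They were in 2 of the 12 windows, both of Rbpj itself and overlapping each other, against 21.6% of the 32851 windows of that length in the table. The longer form GTGGGAA, which contains the shorter one, was in none of the 12 and in 5.4% of all windows. The Rbpj window, on the plus strand at chr5:53590096-53590345, has both matches in capitals. The Notch2 window, on the plus strand at chr3:98013288-98013537, is shown because this receptor had the largest difference among the members, and it holds no match.
Rbpj: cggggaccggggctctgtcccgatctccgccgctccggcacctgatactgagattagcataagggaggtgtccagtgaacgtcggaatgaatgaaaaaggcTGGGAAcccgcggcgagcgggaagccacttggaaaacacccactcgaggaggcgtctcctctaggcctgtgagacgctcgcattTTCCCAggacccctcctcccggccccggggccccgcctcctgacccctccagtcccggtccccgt
Notch2: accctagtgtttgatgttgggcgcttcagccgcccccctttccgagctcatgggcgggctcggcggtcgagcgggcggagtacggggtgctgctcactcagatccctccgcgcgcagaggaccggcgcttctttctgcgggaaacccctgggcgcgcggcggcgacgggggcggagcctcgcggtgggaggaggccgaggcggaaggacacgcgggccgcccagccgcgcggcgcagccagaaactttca

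Numb, on the minus strand of chromosome 12, has 3 annotated starts in the deposited tables, and the windows before them are shown because its transcript models differed between the libraries. They lie at chr12:83921935-83922184 (outermost), chr12:83876813-83877062 (middle) and chr12:83842359-83842608 (innermost). Capitals mark the AG that stands directly before the annotated start in the middle and innermost windows, the letters with which introns end. Of all 32851 windows, 6.1% end in AG. Among the 12 Numb transcripts of GENCODE M21 on the same build, an internal exon began at the middle start in 7 and at the innermost start in 9, and no first exon began at either. At the outermost start a first exon began in 1 transcript and no internal exon began.
Numb outermost: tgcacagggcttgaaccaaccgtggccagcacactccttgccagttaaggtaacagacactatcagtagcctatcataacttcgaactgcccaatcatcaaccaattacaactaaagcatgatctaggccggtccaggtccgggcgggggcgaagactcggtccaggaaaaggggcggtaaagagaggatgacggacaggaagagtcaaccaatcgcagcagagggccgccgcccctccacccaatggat
Numb middle: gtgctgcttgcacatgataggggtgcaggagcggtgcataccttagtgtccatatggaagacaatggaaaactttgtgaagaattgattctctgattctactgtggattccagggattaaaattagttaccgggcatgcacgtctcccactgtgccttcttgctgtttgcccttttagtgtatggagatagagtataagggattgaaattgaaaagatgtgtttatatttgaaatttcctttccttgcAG
Numb innermost: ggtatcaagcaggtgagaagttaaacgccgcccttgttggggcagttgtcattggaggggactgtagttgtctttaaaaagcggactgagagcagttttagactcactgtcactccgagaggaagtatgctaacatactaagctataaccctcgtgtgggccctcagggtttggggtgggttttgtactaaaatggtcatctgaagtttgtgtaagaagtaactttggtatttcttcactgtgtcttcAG

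Levels are FPKM, fragments scaled to transcript length and to the mapped fragments of the library. Judged by the widths of the deposited 95% intervals, taken as counting error alone, the libraries held about 4710000 to 7260000 fragments, and 8112 to 8900 genes were at FPKM 1 or more. A value of exactly 0 may be a failed estimate: Gapdh was listed at 0 in 3 libraries and Eno1 and Rpl10 in all 5. The genes that name the populations went the way of the labels: Krt6a was 11.3-fold higher in the Krt6a+ libraries (adjusted p = 0.0383 by limma). Wap had FPKM 0 and 0 in Krt6a+ libraries, against 50.1, 126 and 13.9 in WAP+ libraries, and so reached FPKM 1 in WAP+ libraries alone. The libraries of a population were not alike. The luminal keratin Krt8 had FPKM 66.2 and 719 in Krt6a+ libraries 2 and 3, against 1664, 1917 and 1681 in WAP+ libraries. The 8 endothelial markers summed to FPKM 0.0902 and 7.51 in the Krt6a+ libraries and to 148, 0.24 and 0.29 in WAP+ libraries 1, 2 and 3, so WAP+ library 1 stood apart. In pools of cells, fewer cells of a type and less RNA per cell cannot be told apart.

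Of the 10 members, 9 passed the filter of FPKM 1 or more in at least 2 libraries and were tested with limma on log2(scaled FPKM + 1), where differences are Krt6a+ minus WAP+. None passed an adjusted p of 0.05, against 0.258% of the 9682 genes tested that were called higher, 0.434% called lower and 0.692% called in all, and 1 member, Notch2, had an unadjusted p under 0.05, against 17.1% of all genes. Across all genes 25 were higher and 42 lower in Krt6a+ libraries, and quantile normalization gave 39 and 39. Differences were positive for 5 members and negative for 4, with a median of 0.56 against -0.01 over all genes tested. The FPKM values of the populations did not overlap for 3 members, Notch2, Notch3 and Jag2, each higher in both Krt6a+ libraries. That was 3 of 9, against 34.1% of all genes that did not overlap in either direction and 19.0% in this direction, so the share was near the background. Notch3 reached FPKM 1 only in Krt6a+ libraries and so passed the filter only through the group where it was high. The smallest p that an exact permutation test could give here is 0.1, over 10 possible splits, so it was not used.

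**Figure D1:**
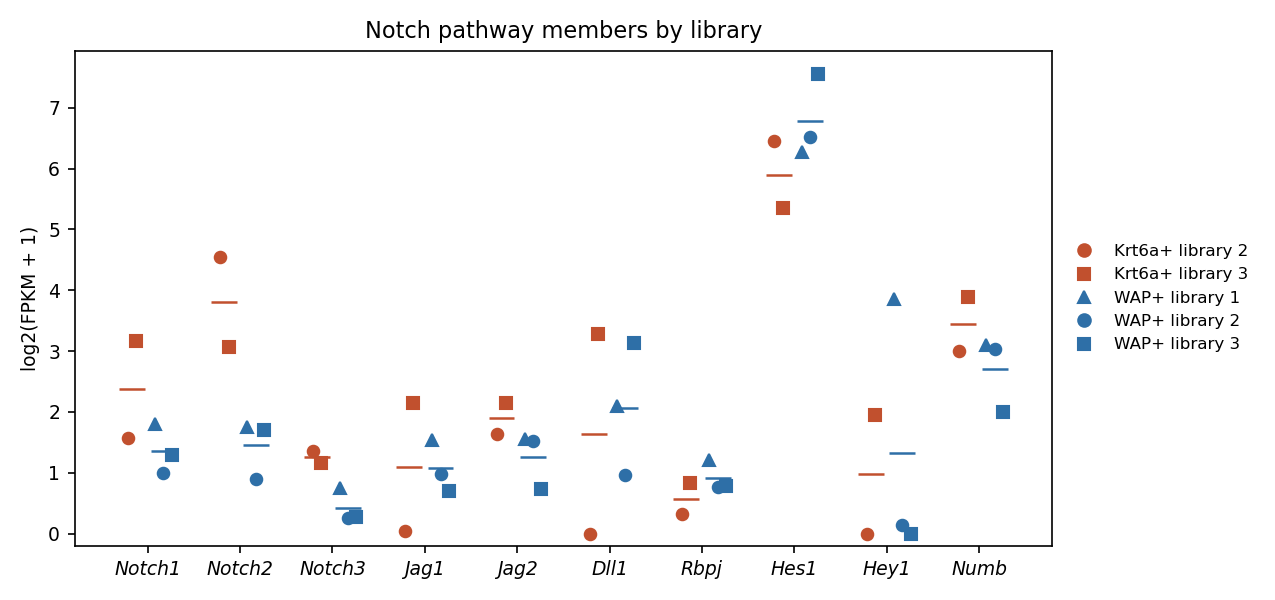
Level of each member in every library as log2(FPKM + 1), with Krt6a+ libraries in red and WAP+ libraries in blue; the marker shape gives the library number and the short line the mean of a population. Both Krt6a+ points lie above every WAP+ point for Notch2, Notch3 and Jag2, while Dll1, Jag1 and Hey1 range from near 0 upwards within a population.

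Among the receptors, Notch2 was the most abundant in Krt6a+ library 2 and WAP+ library 3, and in the other libraries its counting interval overlapped that of Notch1. Notch2 (transcript NM_010928, chromosome 3 from 98013538 to 98150367) had FPKM 22.3 and 7.35 in Krt6a+ libraries 2 and 3, against 2.38, 0.86 and 2.26 in WAP+ libraries 1, 2 and 3. Both Krt6a+ values lay above every WAP+ value, and the Krt6a+ values themselves were further apart than their counting intervals of 21.2 to 23.4 and 6.65 to 8.04. They rested on about 1721 and 448 fragments in Krt6a+ libraries and on 132, 60 and 136 in WAP+ libraries. Scaled means were 14.6 ± 11.5 FPKM (SD, n = 2) in Krt6a+ and 1.87 ± 0.84 FPKM (SD, n = 3) in WAP+ libraries. The log2 difference was 2.26 ± 0.74 (SE; 95% interval 0.55 to 3.98), 4.80-fold after adding 1 to scaled FPKM. It was not past the threshold (limma, adjusted p = 0.176). Without Krt6a+ library 2 it was 1.44 and without Krt6a+ library 3 it was 3.08, where the spread of Krt6a+ cells was not measured and the lone library was taken to vary as WAP+ libraries do (limma, adjusted p = 0.484 and 0.1).

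Notch1 (NM_008714, chromosome 2 from 26457902 to 26503822), a receptor of luminal and many other epithelial cells, had FPKM 1.96 and 8.00 in Krt6a+ libraries, against 2.48, 0.98 and 1.46 in WAP+ libraries. Krt6a+ library 3 was the high one, and Krt6a+ library 2 lay within the WAP+ range, so the populations overlapped. The log2 difference was 0.92 ± 0.71 (SE; interval -0.72 to 2.56; limma, adjusted p = 0.552), and it was 0.21 without Krt6a+ library 3 and 1.64 without Krt6a+ library 2. These receptors thus split the Krt6a+ libraries in opposite ways, with Notch2 higher in library 2 and Notch1 higher in library 3. The luminal keratin Krt8, given above, was also higher in library 3, and its part in this was not tested.

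Notch3 (NM_008716, chromosome 17 from 32120893 to 32166852), a receptor known from vascular mural cells and from luminal progenitors, was the lowest of the 3 member receptors in every library. It had FPKM 1.56 and 1.24 in Krt6a+ libraries, against 0.68, 0.20 and 0.20 in WAP+ libraries, on about 94 and 55 fragments against 28, 10 and 9. The values did not overlap, and the log2 difference of 0.80 ± 0.54 (SE; interval -0.44 to 2.05) did not pass (limma, adjusted p = 0.485). Genes of mural cells were low in the Krt6a+ libraries: Pdgfrb, a receptor of pericytes, had FPKM 0.025 and 0 in Krt6a+ libraries, against 1.55, 0 and 0 in WAP+ libraries, and Cspg4, a pericyte proteoglycan, was listed at 0 in both Krt6a+ libraries, against 0.024, 0.59 and 0 in WAP+ libraries. Acta2, a smooth muscle actin that myoepithelial cells also make, had FPKM 0.66 and 0.40 in Krt6a+ libraries, against 23.7, 25.2 and 8.35 in WAP+ libraries. Rgs5 was listed at 0 throughout, which may be a failed estimate, and the part of mural transcripts in the Notch3 values was not tested.

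Summed over the 3 member receptors, FPKM was 25.8 and 16.6 in Krt6a+ libraries, against 5.53, 2.04 and 3.92 in WAP+ libraries. Notch2 made up 86.4% of that sum in Krt6a+ library 2 and 44.3% of it in Krt6a+ library 3, compared with 42.9%, 42.2% and 57.7% in WAP+ libraries. The make-up of Krt6a+ library 3 was therefore close to that of WAP+ libraries 1 and 2, at a higher sum. Summed markers of the epithelial layers also differed between the populations, with basal sums higher and luminal sums lower in Krt6a+ libraries. The 7 basal markers summed to FPKM 2931 and 3343 in Krt6a+ libraries, against 1315, 226 and 1114 in WAP+ libraries, and the 11 luminal markers to 1771 and 4614 in Krt6a+ libraries, against 9357, 8270 and 8198 in WAP+ libraries. Krt14 made up most of the basal sums, with FPKM 2284 and 2263 in Krt6a+ libraries, against 936, 130 and 862 in WAP+ libraries. Of the 5 basal markers tested, the keratin Krt5 was the 1 that passed the threshold, 16.2-fold higher (limma, adjusted p = 0.0275). Acta2, given above, lay in the other direction. So did Myh11, also on the basal list, with FPKM 0.027 and 0.030 in Krt6a+ libraries, against 1.00, 0.54 and 1.23 in WAP+ libraries. Myh11 was too low to be tested. Of the 8 luminal markers tested none passed, and Krt8, Krt18, Krt19 and Epcam were lower in both Krt6a+ libraries than in any WAP+ library. Differences were positive for 3 of the 8: Cldn3 (0.49), Cldn4 (0.94) and Kit (1.01). Kit had FPKM 9.12 and 7.35 in Krt6a+ libraries, against 3.15, 3.84 and 2.85 in WAP+ libraries, without overlap. The part of basal and luminal markers in the receptor values was not tested. The fourth receptor, Notch4, was listed at 0 in both Krt6a+ libraries and had FPKM 0.15, 0 and 0.59 in WAP+ libraries.

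**Figure D2:**
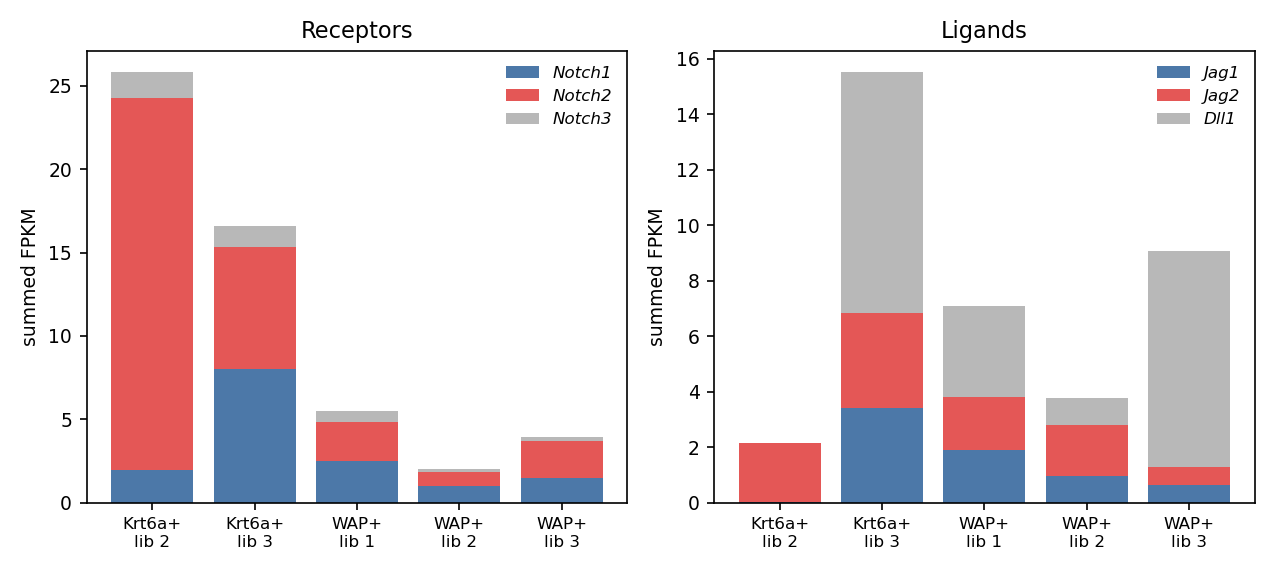
Summed FPKM of the receptors (left panel) and of the ligands (right panel), stacked by gene, with a bar for each library and Krt6a+ libraries on the left of each panel. Receptor sums are 25.8 and 16.6 in Krt6a+ libraries, above the 5.53, 2.04 and 3.92 of WAP+ libraries, while ligand sums overlap.

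The ligands did not separate the populations as a group. Their summed FPKM was 2.14 and 15.5 in Krt6a+ libraries, against 7.09, 3.76 and 9.08 in WAP+ libraries, so the Krt6a+ libraries held both the lowest and the highest sum. Jag2 (NM_010588, chromosome 12 from 112908590 to 112929495), a Jagged ligand of stratified epithelia, had FPKM 2.11 and 3.43 in Krt6a+ libraries, against 1.92, 1.86 and 0.66 in WAP+ libraries. The populations did not overlap, but the counting interval of Krt6a+ library 2, 1.46 to 2.76, covered the values of WAP+ libraries 1 and 2. The log2 difference was 0.56 ± 0.64 (SE; interval -0.92 to 2.03; limma, adjusted p = 0.708).

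Jag1 (NM_013822, chromosome 2 from 137081451 to 137116520), the other Jagged ligand, had FPKM 0.029 and 3.42 in Krt6a+ libraries, against 1.91, 0.96 and 0.63 in WAP+ libraries. The Krt6a+ values lay on both sides of all WAP+ values, on about 1 and 84 fragments, and the log2 difference was -0.06 ± 0.74 (SE; interval -1.76 to 1.65; limma, adjusted p = 0.985). Dll1 (NM_007865, chromosome 17 from 15367354 to 15375823), a Delta-like ligand that marks some basal mammary cells, was listed at 0 in Krt6a+ library 2 and had FPKM 8.67 in Krt6a+ library 3. In WAP+ libraries Dll1 had FPKM 3.26, 0.94 and 7.79, and the log2 difference of -0.54 ± 1.08 (SE; interval -3.04 to 1.97) did not pass (limma, adjusted p = 0.854). The intervals of Dll1 in Krt6a+ library 3 (7.30 to 10.04) and WAP+ library 3 (6.41 to 9.17) overlapped. For Jag1 and Dll1 the range within Krt6a+ libraries exceeded the difference between the population means, and the sign of the difference depended on which library was left out: without Krt6a+ library 2 it was 0.93 for Jag1 and 1.03 for Dll1, and without Krt6a+ library 3 that of Dll1 was -2.06.

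Rbpj, the factor through which all the receptors act, was low everywhere and was not tested. Its 4 transcripts summed to FPKM 0.25 and 0.78 in Krt6a+ libraries, against 1.31, 0.69 and 0.71 in WAP+ libraries, on about 8 to 31 fragments. In each library a single transcript held the whole value. This was NM_001080927 (chromosome 5 from 53590486 to 53657445) in Krt6a+ library 3 and WAP+ libraries 1 and 2, and NM_009035, which starts at 53590346, in Krt6a+ library 2 and WAP+ library 3. The printed Rbpj window ends directly before the start of NM_009035. With no filter the log2 difference of Rbpj was -0.39 ± 0.42 (SE; limma, adjusted p = 0.683).

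Hes1, a repressor that is a direct Notch target in many tissues, was the most abundant member in every library. Hes1 (NM_008235, chromosome 16 from 30065357 to 30067796) had FPKM 86.6 and 39.7 in Krt6a+ libraries, against 76.5, 91.2 and 188 in WAP+ libraries. WAP+ library 3 was the highest and Krt6a+ library 3 the lowest, and Krt6a+ library 2 lay between WAP+ libraries 1 and 2, so the populations overlapped. Scaled means were 61.8 ± 37.7 FPKM (SD, n = 2) in Krt6a+ and 127 ± 77.5 FPKM (SD, n = 3) in WAP+ libraries, with a log2 difference of -1.01 ± 0.60 (SE; interval -2.39 to 0.38; limma, adjusted p = 0.440). Across the 15 alternatives this difference was negative each time, from -1.65 without Krt6a+ library 2 to -0.34 without Krt6a+ library 3. Receptor sums and Hes1 thus ordered the libraries differently: WAP+ library 3, with the most Hes1, had a receptor sum of FPKM 3.92, and Krt6a+ library 3, with the least Hes1, had 16.6.

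Hey1, a related repressor that is also a target in endothelial cells, was carried by few libraries. Hey1 (NM_010423, chromosome 3 from 8663359 to 8667038) was listed at 0 in Krt6a+ library 2 and had FPKM 2.86 in Krt6a+ library 3, against 13.5, 0.10 and 0 in WAP+ libraries 1, 2 and 3. The log2 difference was -0.37 ± 1.19 (SE; interval -3.12 to 2.39; limma, adjusted p = 0.917). All 8 endothelial markers had their highest value in WAP+ library 1, as Hey1 did. Of the markers, 5 were above 0 in more than 1 library. Second place went to Krt6a+ library 3 for Cldn5 and Pecam1, as for Hey1. It went to WAP+ library 3 for Kdr and Tie1 (FPKM 0.17 and 0.12) and to WAP+ library 2 for Cdh5. Cdh5 had FPKM 0.035 there, against 0.032 and 0.029 in Krt6a+ libraries 2 and 3, and Kdr had 0.10 in Krt6a+ library 3. These values are near the floor, so the order of libraries after the first is uncertain for these markers. In Krt6a+ library 3, 4 of the 8 were above 0, and Tie1, Tek, Emcn and Vwf were listed at 0. Cldn5, a tight junction protein of endothelium, had FPKM 0 and 6.76 in Krt6a+ libraries, against 124, 0.21 and 0 in WAP+ libraries. Emcn, an endothelial sialomucin, had FPKM 15.1 in WAP+ library 1 and was listed at 0 in the other libraries. Pecam1, an endothelial adhesion molecule, had 0 and 0.61 against 4.82, 0 and 0. The part of endothelial transcripts in the Hey1 value was not tested. Without WAP+ library 1, or without Krt6a+ library 3, Hey1 was above FPKM 1 in a single library and was not tested.

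**Figure D3:**
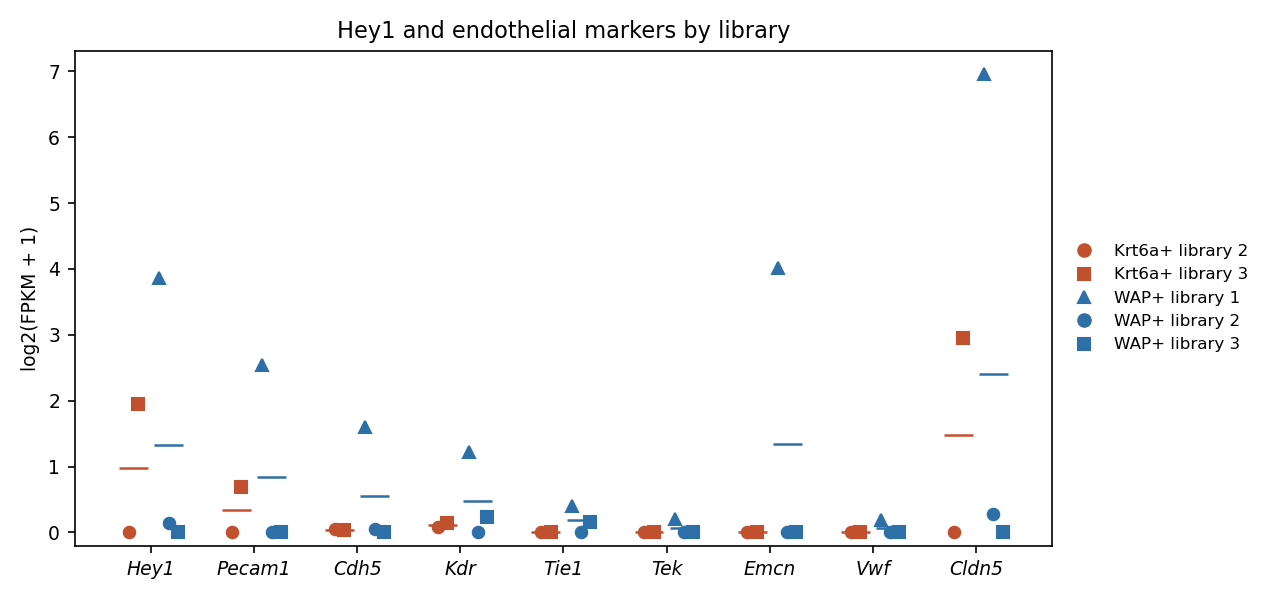
Hey1 beside the 8 endothelial markers in every library as log2(FPKM + 1), with Krt6a+ libraries in red and WAP+ libraries in blue; marker shapes give the library number and short lines the mean of a population. WAP+ library 1 has the highest value for each gene shown, with Hey1 at FPKM 13.5 and Cldn5 at FPKM 124. Second place is taken by Krt6a+ library 3 for Hey1, Cldn5 and Pecam1. It is taken by a WAP+ library for Cdh5, Kdr and Tie1, at values near the floor (FPKM 0.035, 0.17 and 0.12).

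Numb had summed FPKM of 6.97 and 13.7 in Krt6a+ libraries, against 7.56, 7.21 and 2.99 in WAP+ libraries. Krt6a+ library 3 was the highest and WAP+ library 3 the lowest, and the others lay together. The log2 difference was 0.62 ± 0.62 (SE; interval -0.81 to 2.06; limma, adjusted p = 0.659), and taking the highest transcript in place of the sum turned it to -0.14. The transcript models behind these sums differed. Models from the outermost start, which RefSeq lists as non-coding (NR_073563 and NR_073564), had FPKM 2.45 and 9.77 in Krt6a+ libraries and were listed at 0 in all WAP+ libraries. The model from the middle start, NM_001272056, had FPKM 1.83 and 0 in Krt6a+ libraries, against 7.56, 7.21 and 0 in WAP+ libraries. Those from the innermost start had 2.70 and 3.96 in Krt6a+ libraries, all from NM_001272055, against 0, 0 and 2.99 in WAP+ libraries, where NM_010949 held the value. Each WAP+ library therefore had its whole Numb value on a single model. The models share most of their bases, with lengths of 3235 to 3595 bases, so how shared reads were split between them is uncertain, and transcripts were not tested. As shown with the printed windows, the middle and innermost starts coincide with the starts of internal exons in the GENCODE annotation.

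**Figure D4:**
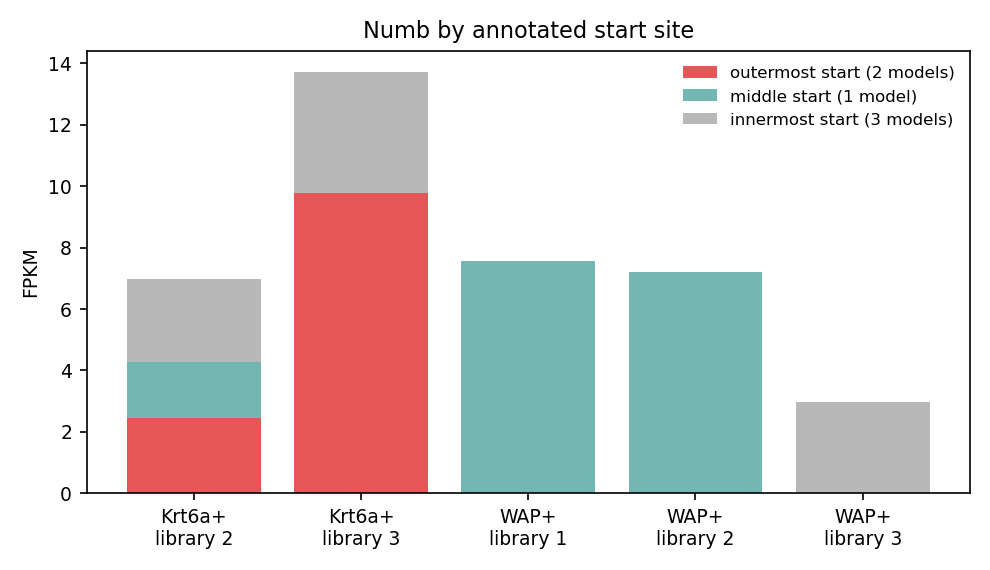
Numb FPKM in each library, stacked by annotated start site, with Krt6a+ libraries on the left. The outermost start holds 2.45 and 9.77 in Krt6a+ libraries and 0 in WAP+ libraries, and each WAP+ bar has a single colour.

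Ordered by scaled mean FPKM, which is per length, Krt6a+ libraries had Hes1 (61.8), Notch2 (14.6), Numb (9.64), Notch1 (4.55), Dll1 (3.84), Jag2 (2.60), Jag1 (1.53), Notch3 (1.34), Hey1 (1.27) and Rbpj (0.47). In WAP+ libraries the order of scaled means was Hes1 (127), Numb (6.00), Dll1 (4.27), Hey1 (3.98), Notch2 (1.87), Notch1 (1.64), Jag2 (1.5), Jag1 (1.15), Rbpj (0.91) and Notch3 (0.35). Hes1 stood above all other members in every library. Below it, neighbours in the order differed by less than their summed SDs, from Notch2 to Rbpj in Krt6a+ libraries and from Numb to Rbpj in WAP+ libraries, where Rbpj and Notch3 differed by more. Among the genes tested in each library, Hes1 lay at the 86.0th to 96.7th percentile of FPKM. Notch2 lay at percentiles 78.8 and 52.6 in Krt6a+ libraries and at 27.3, 16.1 and 33.8 in WAP+ libraries.

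By the rule for likeness, the genes with the smallest root mean square difference from the centred log2 values of Notch2 over the 5 libraries were Ckap4 (0.09), Adgrl2 (0.15) and Srp9 (0.19). Ckap4, a membrane protein of the endoplasmic reticulum, had FPKM 96.5 and 41.9 in Krt6a+ libraries, against 14.6, 6.99 and 13.2 in WAP+ libraries. These genes were also short of the threshold, with adjusted p = 0.103, 0.146 and 0.171 (limma). They were chosen for their likeness to Notch2 in these same libraries, so this is not a further result.

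Other genes of the pathway were counted from lists by role. Of 58 genes, 36 were tested, and none passed an adjusted p of 0.05 (limma), while 3 higher and 1 lower genes had an unadjusted p under 0.05, against 7.66% and 9.45% of all genes. Differences were positive for 26 and negative for 10, with a median of 0.40 against -0.01 over all genes. Values did not overlap for 9 genes that were higher and 3 that were lower in Krt6a+ libraries, against 19.0% and 15.0% of all genes. These counts include Dtx4, which passed the filter only through Krt6a+ libraries, and Fbxw7, which passed only through WAP+ libraries and is the lower gene with an unadjusted p under 0.05. Aph1a also passed only through WAP+ libraries, and among the other 33 genes tested 8 higher and 2 lower genes did not overlap, and 3 higher and 0 lower had an unadjusted p under 0.05. Dlk2, a Delta-like membrane protein that lacks the domain with which ligands bind Notch, had FPKM 13.9 and 44.7 in Krt6a+ libraries, against 0.28, 0 and 1.07 in WAP+ libraries. Its log2 difference of 4.14 ± 0.75 (SE), 17.7-fold after adding 1 to scaled FPKM, was just outside the threshold (limma, adjusted p = 0.0542). Over the alternatives its adjusted p by limma ran from 0.0442, with a filter of FPKM 5, to 0.202, without WAP+ library 2. Dlk2 met the filter of FPKM 5 only through the Krt6a+ libraries, where it was high, so nothing is concluded from the lowest value.

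Among the enzymes, Psen2, a subunit of gamma-secretase, had FPKM 3.07 and 0 in Krt6a+ libraries, against 8.52, 3.89 and 1.41 in WAP+ libraries (log2 difference -1.27 ± 0.87 SE). Of the Fringe enzymes, which add sugars to Notch receptors, Rfng had a log2 difference of 0.46 ± 0.66 (SE) and Lfng of 0.06 ± 0.69 (SE). Their intervals of -1.07 to 1.98 and -1.54 to 1.65 were wide, so larger differences are not excluded. Mfng was too low to be tested. Numbl, the paralog of Numb, had FPKM 6.13 and 5.95 in Krt6a+ libraries, against 2.77, 0 and 0.29 in WAP+ libraries (limma, log2 difference 2.02 ± 0.74 SE, adjusted p = 0.216). Fbxw7, which marks the active intracellular domain for degradation, had FPKM 0.83 and 0.81 in Krt6a+ libraries, against 3.45, 3.47 and 5.76 in WAP+ libraries. It reached FPKM 1 in WAP+ libraries alone and so passed the filter only through the group where it was high. Nothing is concluded from its unadjusted p or its interval.

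In the nucleus, the corepressor Ncor1 had FPKM 30.7 and 32.6 in Krt6a+ libraries, against 17.8, 11.1 and 11.7 in WAP+ libraries (limma, log2 difference 1.08 ± 0.44 SE, adjusted p = 0.261). The acetyltransferase Kat2a had 1.39 and 2.41 in Krt6a+ libraries, against 4.76, 4.11 and 5.16 in WAP+ libraries (log2 difference -1.08 ± 0.63 SE). Of the further target genes, Hes2, Hes5, Hes7 and Hey2 were listed at 0 in every library. Nrarp, a feedback inhibitor induced by Notch, had FPKM 0.48 and 8.04 in Krt6a+ libraries, against 6.87, 1.62 and 9.07 in WAP+ libraries. Its libraries overlapped (log2 difference -0.80 ± 0.95 SE). Within Krt6a+ cells Nrarp was lower in library 2 than in library 3, as were Notch1, Jag1, Jag2, Dll1, Rbpj, Hey1 and Numb. The members Notch2, Notch3 and Hes1 were higher in library 2 than in library 3. Hes6, a family member that opposes Hes1, had a log2 difference of 0.40 ± 0.54 (SE).

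**Figure D5:**
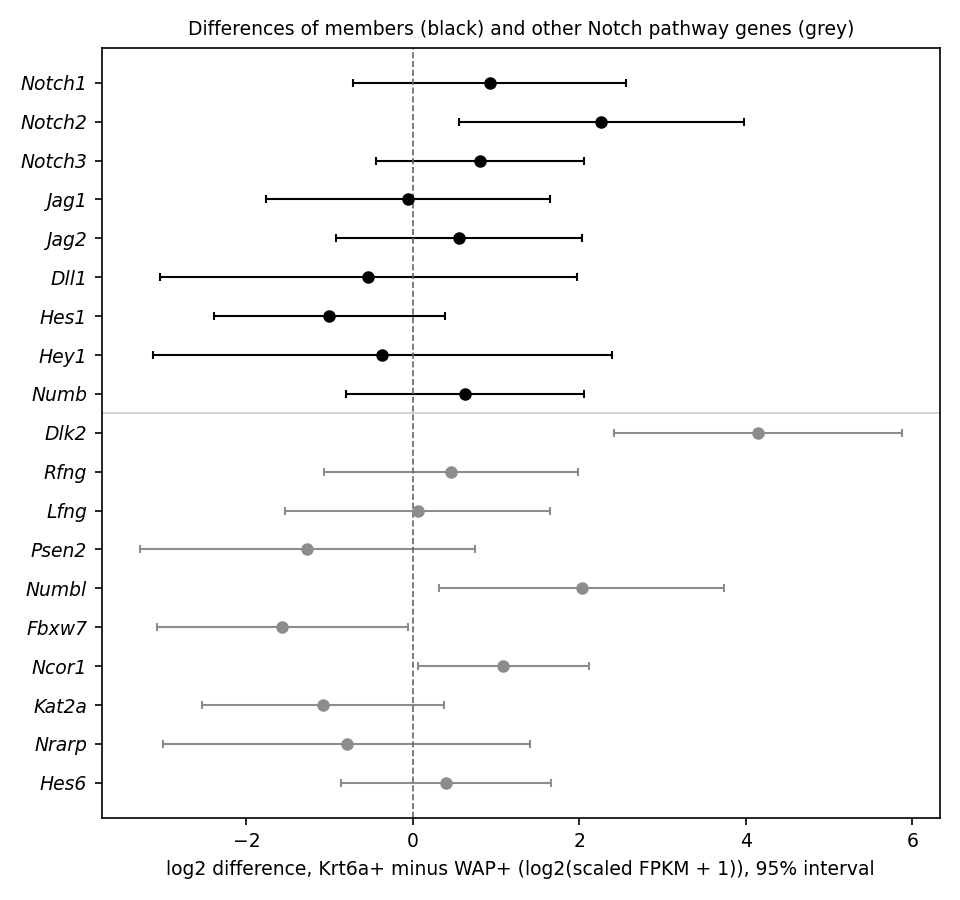
Log2 difference, Krt6a+ minus WAP+, of log2(scaled FPKM + 1) for the 9 tested members (black) and the named other genes of the pathway (grey), with points for the limma estimate and bars for its unadjusted 95% interval. Of the members, Notch2 alone has an interval clear of 0 (0.55 to 3.98), and no gene shown passes the adjusted threshold. Notch3 and Fbxw7 passed the filter through 1 population alone.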

How the data were processed

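Amplified cDNA (SMART-Seq v4) of sorted cells was sequenced as paired reads after Nextera tagmentation, per the labels' protocols; the kit does not mark strand. TopHat and Cufflinks on mm10 were used, per the submitters' processing notes, with versions and read filters not given in the sources used here. Per the file headers, the authors deposited an FPKM value per RefSeq transcript with its 95% bounds, and a per-base coverage signal, which was not used.

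Transcripts were summed per symbol. FPKM was divided by a median-ratio factor per library (0.873 to 1.14) computed from the 5334 genes whose FPKM was at least 1 in each library. Genes at FPKM 1 or more in at least 2 libraries, 9682 in all, were tested as log2(scaled FPKM + 1) with limma 3.58.1 in R 4.3.3 (eBayes with a trend; degrees of freedom 3 residual, 4.87 prior), as two-sided tests, Benjamini-Hochberg adjusted over all genes. This scale understates changes of low genes, and the folds given are taken from it. Overlap was judged on deposited FPKM. Fragment numbers are the squared ratio of FPKM to its SD, taking the upper bound as 2 SD; they cover counting error only. Of single-transcript values up to 200 fragments, 38.2% to 42.1% were whole numbers to within 0.02, too few to recover reads, and count models were not used. Members and lists were chosen with earlier results of these data known. Besides the members, the text names Krt6a and Wap, the 2 genes per pathway list with the largest absolute moderated statistic (1 of these genes is not reported here) and the 3 nearest profiles; other named genes were chosen after their values were seen. The 15 alternatives are given at the end.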

Additional observations from a re-analysis of the deposited data

How the results depend on the processing

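No member passed the adjusted threshold under any of the 15 alternatives. Notch1, Notch2, Notch3, Jag2 and Hes1 kept their direction in each alternative that tested them (14, 15, 12, 14 and 15), with Notch2 from 1.39 (pseudocount 5) to 3.08. Notch3 passed the filter only through the Krt6a+ libraries and was not tested when either of them was left out. Its direction was therefore not examined in those settings, and nothing is concluded from its keeping. The difference of Jag1 turned positive with a pseudocount of 5 (0.05), with no further scaling (0.02), with quantile normalization (0.14) and with a replicate block (0.11), and ran from -0.22 to 0.93 when a library was left out. That of Dll1 ran from -2.06 to 1.03 on leaving out a library and was 0.05 without WAP+ replicate 3. That of Hey1 ran from -1.02 to 0.55 on leaving out a library and was 0.84 with a replicate block, and that of Numb was -0.14 with the highest transcript per symbol. With the replicate block, WAP+ library 1 adds nothing to the difference, because no Krt6a+ library shares its number. Otherwise the cause of these changes was not tested. Of the other pathway genes, 1 passed with a filter of FPKM 5 (Dlk2), where fewer genes were tested. Dlk2 reached FPKM 5 in Krt6a+ libraries alone and so met that filter only through the group where it was high. Nothing is concluded from this pass.

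Counts over all genes moved more: 25 higher and 42 lower became 6 and 20 with a pseudocount of 0.1, 2 and 3 with no filter, 71 and 92 with a filter of FPKM 5, 69 and 64 over genes above 0 in every library, 7 and 9 without the variance trend, and 15 and 19 under a replicate block. Higher genes were 41 with a pseudocount of 5 and 39 with quantile normalization, and lower genes 27 with no further scaling. Leaving out a library gave 2 to 44 higher and 3 to 103 lower genes. Deviations of same-numbered libraries showed little correlation across 9682 genes (0.05 for number 2 and 0 for number 3). Deviations of the Krt6a+ libraries mirror each other, so these correlations are not separate evidence and cannot tell whether libraries shared mice. The labels do not say that the numbers mark shared mice, so the numbers were not taken as pairs. With so few libraries the 95% interval of the difference included 0 for 8 of the 9 tested members, and Rbpj rested on about 8 to 31 fragments per library.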

Other observations

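Some further pathway genes were too low to be tested. Rbpjl, the relative of Rbpj that is part of a pancreatic transcription complex, had FPKM 0 and 2.73 in Krt6a+ libraries, against 0.59, 0 and 0 in WAP+ libraries. Kat2b, an acetyltransferase, had 2.78 and 0.95 in Krt6a+ libraries, against 0.99, 0.53 and 0.30 in WAP+ libraries. The Delta-like ligands Dll3 and Dll4 were listed at 0 in all 5 libraries, including WAP+ library 1, which held the endothelial markers. The 9 stromal and pericyte markers summed to FPKM 57.5 and 210 in Krt6a+ libraries, against 18.6, 9.19 and 84.2 in WAP+ libraries, and none of the 4 tested passed (limma, lowest adjusted p = 0.296, for Dcn). The proteoglycan Dcn made up most of these sums, with FPKM 49.4 and 210 in Krt6a+ libraries, against 16.3, 8.60 and 67.0 in WAP+ libraries. The collagen genes Col1a1, Col1a2 and Col3a1 were listed at 0 in Krt6a+ library 3, where Dcn was highest. Col1a2, Col3a1 and Lum were highest in WAP+ library 3 (FPKM 6.66, 6.00 and 2.18), and Pdgfra and Pdgfrb in WAP+ library 1 (FPKM 0.28 and 1.55). The 4 adipocyte markers were listed at 0 throughout.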
